A study of Mus musculus with 6 samples.

Results

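This set holds 46 genes of the cell cycle, DNA replication and mitosis, chosen by gene symbol from a table of 37305 genes, with the row of the highest mean taken for each symbol. They were grouped by role into 10 genes of replication licensing and the replication fork, 4 of nucleotide supply, 9 drivers of G1 and of the step from G1 to S phase, 4 brakes and 19 genes of mitosis. All 46 symbols were found, each with a single row. The RNA came from CD4+CD25+ regulatory T (Treg) cells sorted from mouse spleens, and its polyadenylated part was sequenced. The mutant genotype was *Cd4*Cre *Junb* fl/fl, called *Junb*-deficient here, in which Cre recombinase under the *Cd4* promoter is active in T cells and deletes *Junb*. JunB is one of the proteins that pair up to form AP-1. The control genotype was *Junb* fl/fl, which carries the same loxP-flanked alleles without Cre. Both were on the C57BL/6 strain, and the study's methods give sex-matched mice of 6 to 12 weeks for its experiments. Because *Cd4*Cre acts in all T cells that pass through a *Cd4*-expressing stage, conventional T cells of these mice would lose *Junb* too. Each genotype had 3 libraries, numbered 1 to 3 in the column names, and no source states whether each came from its own mouse.

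Cell division begins when cyclin D kinases inactivate the retinoblastoma protein and release E2F factors, which switch on the genes of DNA replication. The MCM helicase is loaded onto origins by CDC6 and CDT1 before S phase, and geminin blocks a second loading. Genes of mitosis follow later, under the DREAM and MuvB complexes with B-MYB and FOXM1, which reach their promoters through the CHR element and through CCAAT boxes bound by NF-Y. Treg cells of the spleen include resting central cells and activated effector cells, and the effector cells divide more often.

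These textbook elements were searched for in promoters taken from RefSeq on GRCm38.p6, from 250 bases before to 50 bases after each start site. This build differs from that of the expression files (mm9), so the 2 sets of coordinates were kept apart. Promoters were found for 36 of the 46 members (41 promoters), not for *Mcm4*, *Gmnn*, *Ccnd2*, *Ccne2*, *Rb1*, *Ccna2*, *Aurkb*, *Tpx2*, *Stmn1* and *Foxm1*. The replication and mitosis groups held different letters. An E2F site (TTTGGCGC, TTTCCCGC, TTTCGCGC or TTTGCCGC on either strand, matches that overlap each other included) stood in 6 of 9 replication promoters (66.7%) and in 0 of 14 mitosis promoters, beside 2.26% of all 32851 promoters in the table and 4.1% of those of genes tested here. It stood in 0 of 4 promoters of nucleotide supply, in 2 of 9 of the G1 drivers (22.2%) and in 0 of 5 of the brakes. The CHR element (TTTGAA on either strand) stood in 10 of 14 mitosis promoters (71.4%) and in 1 of 9 replication promoters, beside 17.9% of all promoters and 11.8% of those of tested genes. The CCAAT box (CCAAT on either strand) was in 12 of 14 mitosis promoters (85.7%) and in 7 of 9 replication promoters (77.8%), beside 37.4% of all. All 10 mitosis promoters with a CHR element also held a CCAAT box, a pair found in 6.95% of all promoters. The AP-1 site (TGACTCA or TGAGTCA) was in 0 of 41 member promoters, beside 5.2% of all and 3.37% of those of tested genes. A match is a description of these letters and not a binding site.

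The promoters below show both kinds, from 200 bases before to 30 bases after the start site, 5′ to 3′ on the strand of the gene, with every E2F, CHR and CCAAT match in capitals. *Mcm5* and *Mcm6*, subunits of the helicase, hold E2F sites together with CCAAT boxes, and the 4 mitotic genes hold a CHR element close to the start with at least 1 CCAAT box before it (*Cdc20* has another CCAAT box just after it).
Mcm5 (chr8:75109309-75109538, plus strand): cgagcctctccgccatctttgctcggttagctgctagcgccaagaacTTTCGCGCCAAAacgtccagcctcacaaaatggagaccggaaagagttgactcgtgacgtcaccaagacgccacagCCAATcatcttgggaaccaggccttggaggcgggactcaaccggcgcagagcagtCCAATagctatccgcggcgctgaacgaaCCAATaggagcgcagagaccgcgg
Mcm6 (chr1:128359676-128359905, minus strand): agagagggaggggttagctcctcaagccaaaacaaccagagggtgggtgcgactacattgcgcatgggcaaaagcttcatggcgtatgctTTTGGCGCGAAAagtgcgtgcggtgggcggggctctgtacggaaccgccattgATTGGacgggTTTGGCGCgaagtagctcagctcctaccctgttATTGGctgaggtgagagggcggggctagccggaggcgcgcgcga
Cenpa (chr5:30666686-30666915, plus strand): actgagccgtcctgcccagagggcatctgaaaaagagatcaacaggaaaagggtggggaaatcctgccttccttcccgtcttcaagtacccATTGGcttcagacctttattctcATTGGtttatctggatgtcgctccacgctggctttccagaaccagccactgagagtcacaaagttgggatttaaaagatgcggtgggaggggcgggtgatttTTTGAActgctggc
Ube2c (chr2:164769729-164769958, plus strand): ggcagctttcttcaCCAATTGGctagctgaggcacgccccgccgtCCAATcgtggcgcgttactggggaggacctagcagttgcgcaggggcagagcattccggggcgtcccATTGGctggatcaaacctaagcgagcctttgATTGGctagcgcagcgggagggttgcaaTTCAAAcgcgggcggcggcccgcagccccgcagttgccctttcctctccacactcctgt
Ccnb2 (chr9:70421525-70421754, minus strand): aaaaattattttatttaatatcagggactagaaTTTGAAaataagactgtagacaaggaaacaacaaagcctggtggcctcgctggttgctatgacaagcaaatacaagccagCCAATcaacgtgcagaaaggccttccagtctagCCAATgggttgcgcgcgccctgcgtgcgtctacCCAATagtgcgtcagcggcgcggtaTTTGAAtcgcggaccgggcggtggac
Cdc20 (chr4:118437314-118437543, minus strand): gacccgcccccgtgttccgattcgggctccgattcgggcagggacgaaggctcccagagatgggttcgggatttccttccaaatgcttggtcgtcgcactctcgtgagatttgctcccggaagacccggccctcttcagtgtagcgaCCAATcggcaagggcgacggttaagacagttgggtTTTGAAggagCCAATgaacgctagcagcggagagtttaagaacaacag

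Values are FPKM (fragments per kilobase of transcript, scaled to the mapped fragments), so the number of reads behind them is unknown. The depth estimated from the spacing of low values was 0.812, 0.507 and 0.467 of that of control 1 in *Junb*-deficient 1, 2 and 3, and 0.493 and 0.344 in control 2 and 3. *Junb* (chr8:87500811-87502617 of mm9, minus strand) was at 180, 49.1 and 37.8 FPKM in *Junb*-deficient 1, 2 and 3, against 921, 298 and 256 FPKM in control 1, 2 and 3. *Foxp3*, which defines the Treg lineage, was present in every library, at 130 to 153 FPKM in *Junb*-deficient and 115 to 161 FPKM in control libraries. Of 11781 genes with a mean of at least 1 FPKM, limma on log2(FPKM + 1) called 0 (0%) at an adjusted p of 0.05, and 636 had an unadjusted p under 0.05. A gene is said here to have risen or fallen where it passed the looser thresholds of the study, a log2 difference beyond 0.5 with p under 0.05 before adjustment, which 197 genes (1.67%) did upward and 340 (2.89%) downward. Log2 differences are *Junb*-deficient minus control on the log2(FPKM + 1) scale, which understates the change of genes with low values.

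Of the 46 members, 45 reached the filter and were tested, and *Ccnb1* was not. Of these, 0 rose, 3 fell (*Stmn1*, *Gmnn* and *Cenpa*) and 42 did neither. With the library number as a replicate block 8 fell, where 7.2% of all genes did. The values bear out this pairing clearly for number 1 and less so for numbers 2 and 3. Their log2 differences ran from -1.32 to 0.58 with a median of -0.23, against a median of -0.05 over all genes tested, and 39 of 45 (86.7%) were below 0, against 56.0% of all genes. No member passed an adjusted p of 0.05, and the smallest was 0.568 for *Stmn1* (limma, Benjamini-Hochberg). In 5 members (*Stmn1*, *Gmnn*, *Cenpa*, *Tyms* and *Ccne1*) the highest *Junb*-deficient library was below the lowest control, which held for 6.36% of all genes, and in 0 members was the lowest *Junb*-deficient library above the highest control, which held for 4.58%. These are bulk values, in which fewer cells of a dividing kind and less RNA per cell cannot be told apart.

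**Figure D1:**
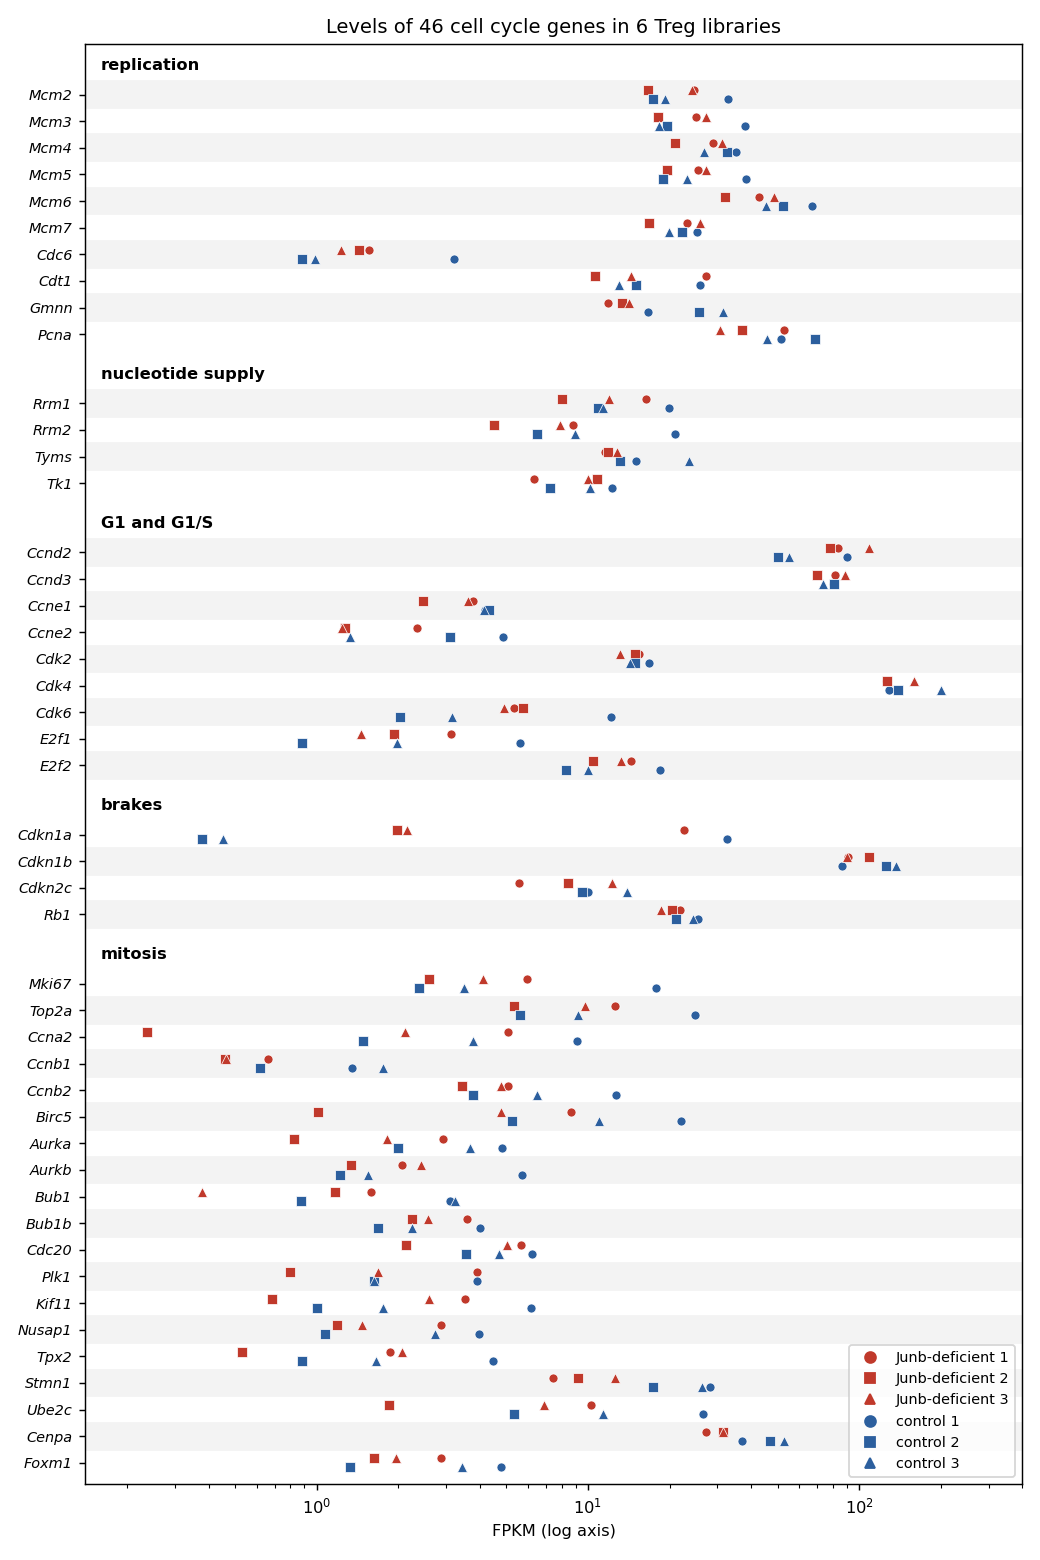
FPKM of the 46 genes on a log axis, by role, with *Junb*-deficient libraries in red above control libraries in blue, and the number of the library given by the shape. *Stmn1*, *Gmnn* and *Cenpa* have all red points to the left of all blue ones, while most other mitotic genes have a far blue circle (control 1) and a low red square (*Junb*-deficient 2).

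*Stmn1* encodes stathmin, which destabilizes microtubules and is abundant in dividing cells. Its level was 7.44, 9.22 and 12.5 FPKM in *Junb*-deficient 1, 2 and 3, against 28.1, 17.4 and 26.4 FPKM in control 1, 2 and 3. The highest *Junb*-deficient library stayed below the lowest control. Means were 9.73 ± 2.59 FPKM in *Junb*-deficient and 24.0 ± 5.74 FPKM in control libraries (SD, n = 3), and the log2 difference was -1.22 (SE 0.26, unadjusted p = 0.00186, limma adjusted p = 0.568). Within numbers 1, 2 and 3 the log2 differences were -1.79, -0.85 and -1.01. *Stmn1* (chr4:134024235-134029758 of mm9, plus strand) has 2 near-identical stretches elsewhere in the genome, the best of which covers 92.2% of its transcript at 93.6% identity. The sources used here do not say how reads with several matches were counted, so its level is uncertain to that extent.

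*Gmnn* encodes geminin, the inhibitor of CDT1 that prevents origins from being licensed again within a cycle. It was at 11.9, 13.4 and 14.2 FPKM in *Junb*-deficient 1, 2 and 3, and at 16.7, 25.7 and 31.4 FPKM in control 1, 2 and 3. The groups did not overlap, and the libraries numbered 1 were the lowest of their genotype. The log2 difference was -0.82 (SE 0.25, unadjusted p = 0.0115, limma adjusted p = 0.834), and within numbers 1, 2 and 3 it was -0.46, -0.90 and -1.10. *Gmnn* (chr13:24843714-24853792 of mm9, minus strand) has a copy elsewhere that covers 44.4% of its transcript at 94.0% identity. Its target *Cdt1*, the licensing factor, was at 27.3, 10.6 and 14.4 FPKM in *Junb*-deficient libraries, against 25.9, 15.0 and 13.0 FPKM in controls, with a log2 difference of -0.08 (SE 0.38).

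*Cenpa* encodes the histone H3 variant that marks centromeres. It was at 27.2, 31.5 and 31.5 FPKM in *Junb*-deficient 1, 2 and 3, and at 36.9, 46.9 and 53.01 FPKM in control 1, 2 and 3. Every control exceeded every *Junb*-deficient library, and here too the libraries numbered 1 were the lowest of each genotype. The log2 difference was -0.57 (SE 0.19, unadjusted p = 0.0184, limma adjusted p = 0.834). *Cenpa* (chr5:30969150-30977200 of mm9, plus strand) is the most abundant of the mitotic members and has no near-identical copy at the limits searched. Of the 3 genes that fell, it was the one whose call was lost under some settings, at a log2 difference of -0.46 after each library was corrected for its trend on exon length and also under quantile scaling, and when *Junb*-deficient 1, control 2 or control 3 was left out.

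In the replication group *Gmnn* was the one of 10 members that fell. The 6 *Mcm* genes, which encode the subunits of the helicase, had means of 21.8 to 41.0 FPKM in *Junb*-deficient and 22.4 to 55.0 FPKM in control libraries. Their log2 differences were small, from -0.04 for *Mcm2* to -0.42 for *Mcm6*, and none passed the test. *Mcm6* was at 42.6, 32.0 and 48.3 FPKM in *Junb*-deficient 1, 2 and 3, and at 67.2, 52.6 and 45.2 FPKM in control 1, 2 and 3. *Mcm2* was at 24.6, 16.7 and 24.2 FPKM in *Junb*-deficient libraries, and at 32.7, 17.4 and 19.2 FPKM in controls. In both genes control 1 was the highest library and *Junb*-deficient 2 the lowest, and the groups overlapped. The sign of the difference depended on the number of the libraries compared. All 6 *Mcm* genes were lower in the *Junb*-deficient library within number 1 (log2 differences -0.65 to -0.12), and all 6 were higher within number 3 (0.09 to 0.55). Over the whole group the median log2 difference was -0.09, and within numbers 1, 2 and 3 it was -0.43, -0.43 and 0.19.

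*Pcna*, the sliding clamp of the replication fork, differed in its pattern from the *Mcm* genes. It was at 52.8, 37.1 and 30.6 FPKM in *Junb*-deficient 1, 2 and 3, and at 51.4, 68.8 and 45.8 FPKM in control 1, 2 and 3. The difference lay in numbers 2 and 3 (-0.87 and -0.57) and not in number 1 (0.04), and over all libraries it was -0.47 (SE 0.26, unadjusted p = 0.107). A copy of *Pcna* elsewhere covers 82.8% of its transcript at 99.3% identity. *Cdc6*, the loader of the helicase, was the scarcest member of the group, at 1.56, 1.43 and 1.23 FPKM in *Junb*-deficient libraries, against 3.21, 0.882 and 0.989 FPKM in controls.

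Of the 4 genes of nucleotide supply 0 fell and 0 rose in limma (0 with an unadjusted p under 0.05). *Tyms*, thymidylate synthase, was at 11.6, 11.9 and 12.8 FPKM in *Junb*-deficient libraries, and at 15.0, 13.1 and 23.7 FPKM in controls. All *Junb*-deficient libraries were lower, by little in number 2, and the log2 difference was -0.44 (SE 0.23, unadjusted p = 0.1001). *Rrm2*, the S phase subunit of ribonucleotide reductase, was at 8.84, 4.49 and 7.90 FPKM in *Junb*-deficient 1, 2 and 3, and at 20.9, 6.52 and 8.96 FPKM in control 1, 2 and 3. It was lower within every number, and most in number 1 (-1.15, against -0.45 and -0.16), and it fell under the replicate block (limma unadjusted p = 0.0308). *Rrm1*, the other subunit, had a log2 difference of -0.20 (SE 0.32), and *Tk1*, thymidine kinase, one of -0.12 (SE 0.26). The median of the 4 genes was -0.32, and without control 1 it was -0.06.

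The drivers of G1 showed no shared direction, with 5 of 9 below 0 and 0 of 9 past the test. Their median log2 difference was -0.08, and 0.05 without control 1. *Ccnd2*, a cyclin D that T cells express together with *Ccnd3*, was at 83.4, 78.2 and 108 FPKM in *Junb*-deficient 1, 2 and 3, against 89.8, 50.2 and 55.0 FPKM in control 1, 2 and 3. It was higher in *Junb*-deficient libraries within numbers 2 and 3 (0.63 and 0.97) and not within number 1 (-0.11), and its overall log2 difference was 0.50 (SE 0.27, unadjusted p = 0.102). *Cdk6*, a partner kinase of the D cyclins, was at 5.34, 5.77 and 4.91 FPKM in *Junb*-deficient libraries and 12.1, 2.03 and 3.16 FPKM in controls. It shared only the signs of *Ccnd2* within numbers 1, 2 and 3 (-1.05, 1.16 and 0.51), and was far lower within number 1. Its log2 difference over all libraries was 0.21 (SE 0.51, limma unadjusted p = 0.697). *Cdk4*, the other partner, was the most abundant of the 46 members, at 126, 126 and 159 FPKM in *Junb*-deficient and 129, 139 and 201 FPKM in control libraries. *Ccnd3* was at 70.0 to 89.0 FPKM in *Junb*-deficient and 73.6 to 80.8 FPKM in control libraries.

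The cyclins E, which drive entry into S phase with *Cdk2*, were scarce. *Ccne1* was at 3.77, 2.46 and 3.63 FPKM in *Junb*-deficient libraries, and at 4.19, 4.31 and 4.15 FPKM in controls. The groups did not overlap, but the log2 difference was -0.30 (SE 0.22, unadjusted p = 0.211). *Ccne2* had a log2 difference of -0.58 (SE 0.39, unadjusted p = 0.178) and control values that spread between 1.33 and 4.88 FPKM. *Cdk2* averaged 14.5 ± 1.24 FPKM in *Junb*-deficient and 15.3 ± 1.28 FPKM in control libraries (SD, n = 3). The activators *E2f1* and *E2f2* had log2 differences of -0.11 (SE 0.47) and 0.12 (SE 0.30), and both were highest in control 1.

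Among the 4 brakes, *Cdkn1a*, the kinase inhibitor induced by p53 and by other stimuli, had the highest ratio of its top library to its bottom library of any member. It was at 22.7, 1.98 and 2.16 FPKM in *Junb*-deficient 1, 2 and 3, and at 32.6, 0.377 and 0.453 FPKM in control 1, 2 and 3. The libraries numbered 1 stood far above the others in both genotypes, and the sign of the difference turned between number 1 (-0.50) and numbers 2 and 3 (1.11 and 1.12). The overall log2 difference was 0.58 (SE 1.35, unadjusted p = 0.681). *Cdkn1b*, an inhibitor that restrains the cycle of resting T cells, was at 91.1, 109 and 90.4 FPKM in *Junb*-deficient libraries, against 86.3, 125 and 137 FPKM in controls. *Cdkn2c* and *Rb1* had log2 differences of -0.36 (SE 0.29) and -0.21 (SE 0.16), and both were lower within every number.

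The mitosis group had the lowest median, -0.36, with 17 of 18 tested members below 0. *Stmn1* and *Cenpa* fell, and under the replicate block, which compares genotypes within numbers, *Birc5*, *Ube2c*, *Ccna2* and *Aurka* fell too. *Birc5*, which encodes survivin of the chromosomal passenger complex, had the most negative value of all members, and it was at 8.69, 1.01 and 4.77 FPKM in *Junb*-deficient 1, 2 and 3, against 22.1, 5.26 and 11.02 FPKM in control 1, 2 and 3. Its log2 difference was -1.32, but the libraries of each genotype spread so widely that the groups overlapped (SE 0.65, unadjusted p = 0.0822, against 0.000165 in limma with the replicate block). *Ube2c*, the conjugating enzyme that works with the anaphase-promoting complex, was at 10.3, 1.85 and 6.86 FPKM in *Junb*-deficient libraries, and at 26.5, 5.36 and 11.4 FPKM in controls (log2 difference -1.03, SE 0.65, limma unadjusted p with the block = 0.000788). *Ccna2*, cyclin A, was at 5.06, 0.236 and 2.12 FPKM in *Junb*-deficient libraries, against 9.09, 1.49 and 3.78 FPKM in controls (limma unadjusted p with the block = 0.00933). In these 3 genes the library numbered 1 was the highest and the library numbered 2 the lowest of each genotype, and the *Junb*-deficient library was lower within every number. Their log2 differences within numbers were all between -1.64 and -0.61. *Aurka*, the spindle pole kinase, was likewise lower within each number, at 2.93, 0.822 and 1.82 FPKM in *Junb*-deficient libraries and 4.81, 1.99 and 3.66 FPKM in controls (limma unadjusted p with the block = 0.0209).

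Other mitotic genes differed in their pattern over the numbers. *Mki67*, which encodes the proliferation marker Ki-67, was at 5.96, 2.59 and 4.09 FPKM in *Junb*-deficient 1, 2 and 3, and at 17.8, 2.37 and 3.48 FPKM in control 1, 2 and 3. Its difference was -1.43 within number 1, and 0.09 and 0.18 within numbers 2 and 3. *Top2a*, the topoisomerase that untangles sister chromatids, was at 12.6, 5.32 and 9.74 FPKM in *Junb*-deficient libraries, against 24.8, 5.60 and 9.23 FPKM in controls. Without the libraries numbered 1, the log2 difference was 0.14 for *Mki67* and 0.005 for *Top2a*. *Aurkb*, the kinase of the passenger complex, and *Tpx2* and *Kif11*, which build the spindle, were also lower within number 1 (-1.13, -0.93 and -0.67) and higher within number 3 (0.42, 0.21 and 0.38). *Bub1b*, of the spindle checkpoint, was the one mitotic member with a positive overall value (0.10, SE 0.30), and its partner *Bub1* had one of -0.69 (SE 0.42). *Bub1* was lower within numbers 1 and 3 (-0.66 and -1.62) and higher within number 2 (0.21), and *Nusap1* and *Foxm1* had the same signs. *Ccnb1*, cyclin B1, was at 0.660, 0.458 and 0.462 FPKM in *Junb*-deficient libraries and 1.34, 0.616 and 1.75 FPKM in controls, and was too low to be tested. *Ccnb2*, *Cdc20*, *Plk1*, *Nusap1* and *Foxm1* had log2 differences between -0.55 and -0.17, and none passed the test. *Ccnb2* was lower within every number, and *Cdc20* and *Plk1* mainly within number 2 (-0.53 and -0.55).

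**Figure D2:**
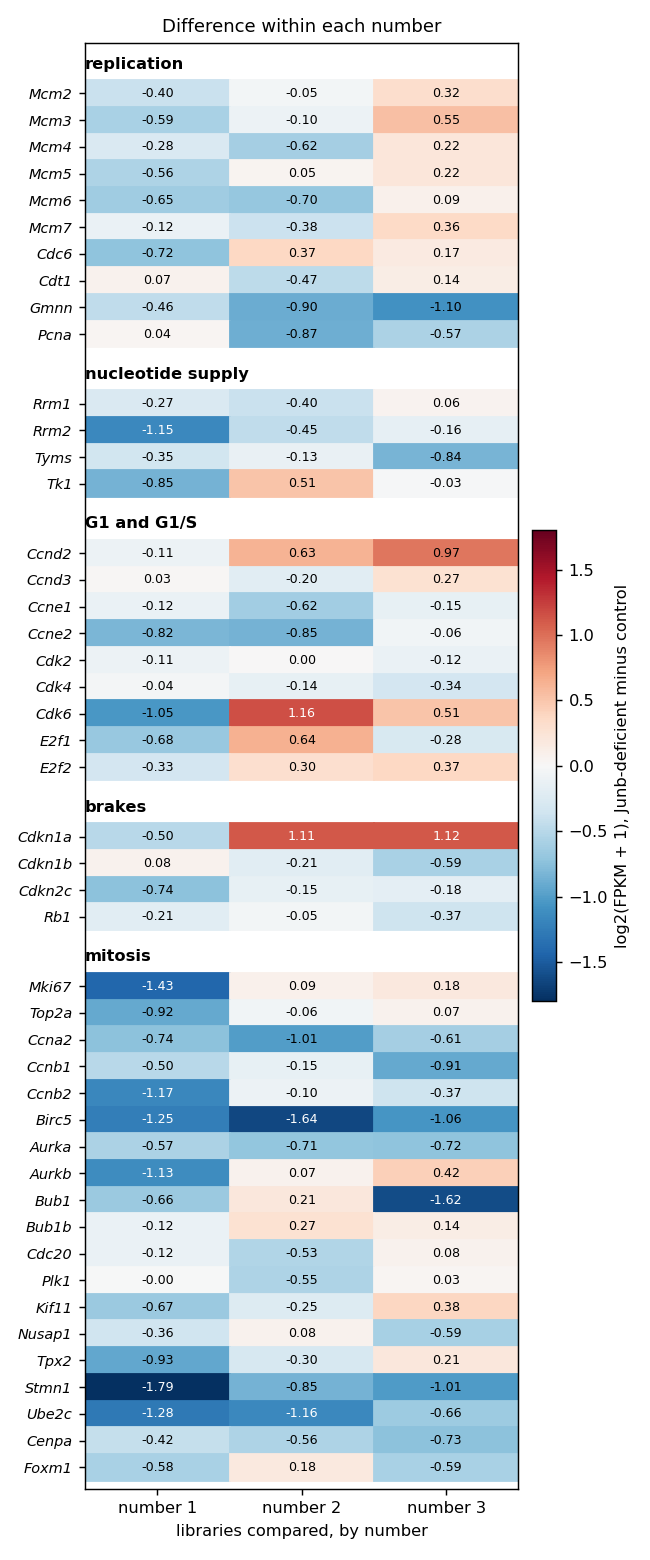
Log2(FPKM + 1) of each *Junb*-deficient library minus the control library of the same number, for the 46 genes by role (blue, lower in *Junb*-deficient). *Birc5*, *Ube2c*, *Ccna2*, *Aurka*, *Stmn1*, *Gmnn* and *Cenpa* are blue in all 3 columns, while the *Mcm* genes, *Mki67*, *Aurkb*, *Tpx2* and *Kif11* turn to red or white in number 3.

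The median mitotic gene differed most between the libraries numbered 1. Control 1 was the highest of the 6 libraries in 32 of 45 tested members (71.1%) and in 16 of 18 mitotic ones (88.9%), against 16.9% of all genes. *Junb*-deficient 2 was the lowest in 20 of 45 members (44.4%) and in 10 of 18 mitotic ones (55.6%), against 19.9% of all genes. The mitotic genes summed to 114, 68.1 and 98.9 FPKM in *Junb*-deficient 1, 2 and 3, and to 226, 104 and 153 FPKM in control 1, 2 and 3. The median log2 difference over mitotic genes was -0.70, -0.27 and -0.48 within numbers 1, 2 and 3, with 18, 12 and 10 of 18 genes below 0. It rested on single libraries, since over all numbers it was -0.04 without control 1 and -0.72 without control 2. The medians of all genes within numbers 1, 2 and 3 were 0.01, -0.12 and -0.03. The 10 replication genes summed to 263, 187 and 244 FPKM in *Junb*-deficient libraries and 334, 274 and 244 FPKM in controls. Within number 3 the replication sums were level while the mitotic sum was lower in *Junb*-deficient 3. Such sums weigh abundant genes most. *Cenpa* (31.5 against 53.01 FPKM) and *Stmn1* (12.5 against 26.4 FPKM) were lower in *Junb*-deficient 3 than in control 3. The level replication sums held *Mcm* genes that were higher in *Junb*-deficient 3, and *Gmnn* and *Pcna*, which were lower. In both genotypes the library numbered 1 was above the other libraries in the mitotic genes, by a median log2 difference of 0.66 in *Junb*-deficient and 1.05 in control cells, against -0.01 and -0.08 over all genes.

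**Figure D3:**
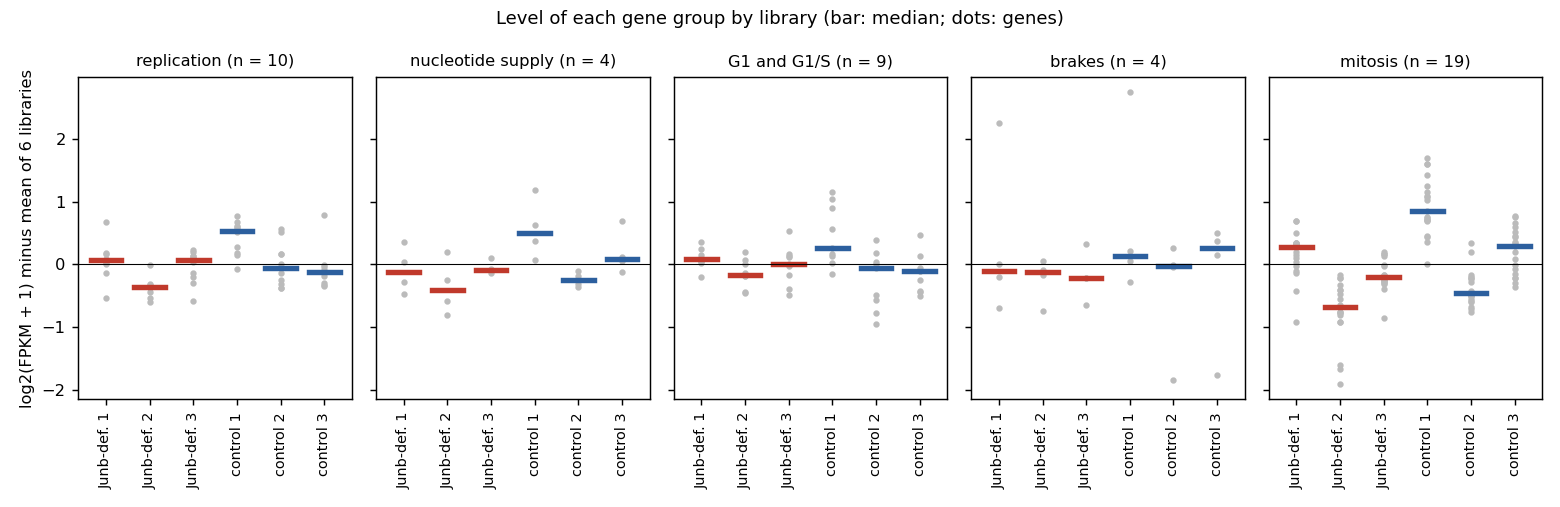
Each gene's log2(FPKM + 1) minus its mean over the 6 libraries (dots) and the median of each role group (bars, *Junb*-deficient in red, control in blue), by library. The mitosis median is highest in control 1 (0.86) and lowest in *Junb*-deficient 2 (-0.68), with a wider range than the replication median (0.54 in control 1, -0.37 in *Junb*-deficient 2).

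Markers of some other cells moved with number 1 as well. The 8 myeloid markers summed to 73.0, 6.96 and 10.3 FPKM in *Junb*-deficient 1, 2 and 3, against 95.7, 8.26 and 13.5 FPKM in control 1, 2 and 3, and 7 of 8 were highest in control 1. The 6 dendritic cell markers summed to 42.5, 10.9 and 8.84 FPKM in *Junb*-deficient libraries and 76.5, 3.19 and 4.78 FPKM in controls, led by *Siglech* of plasmacytoid dendritic cells (19.5 FPKM in *Junb*-deficient 1 and 55.8 FPKM in control 1). Of 10 erythroid markers 8 were highest in control 1, where *Hbb-b1* reached 23.6 FPKM, but *Klf1* and *Hbb-b2* were listed at 0 in at least 4 of 6 libraries. The B cell markers differed in order, with 6 of 7 highest in *Junb*-deficient 1. The most abundant of them, *Ighm*, was instead lowest in number 1 of each genotype (431 FPKM in *Junb*-deficient 1 and 533 FPKM in control 1). The 4 plasma cell markers found summed to 96.05, 50.3 and 54.3 FPKM in *Junb*-deficient 1, 2 and 3. In control 1, 2 and 3 they summed to 70.25, 50.2 and 49.8 FPKM. *Igj* and *Xbp1* were highest in number 1 of each genotype, and *Sdc1* in number 3. *Igj* was at 31.3, 2.43 and 3.94 FPKM in *Junb*-deficient libraries, and at 6.985, 1.26 and 4.78 FPKM in controls. *Tnfrsf17* was at 0 in the 4 libraries not numbered 1. The sum of the CD8 T and NK cell markers, led by *Nkg7*, did not follow number 1. It was 57.5, 72.75 and 122 FPKM in *Junb*-deficient 1, 2 and 3, against 88.0, 71.1 and 109 FPKM in control 1, 2 and 3. The CD8 genes *Cd8a* and *Cd8b1* were highest in number 1 of each genotype, and *Klrb1c* was lowest there. *Cd8a* was at 2.28, 0.841 and 0.930 FPKM in *Junb*-deficient libraries, and at 4.54, 1.14 and 0.888 FPKM in controls. *Nkg7*, *Ncr1* and *Prf1* had no order shared by the genotypes. Germinal centre markers were lowest in number 1 of both genotypes. They summed to 33.7, 52.7 and 40.9 FPKM in *Junb*-deficient libraries, against 27.3, 58.5 and 62.4 FPKM in controls. The 7 Treg markers summed to 1190 to 1336 FPKM in *Junb*-deficient and 1402 to 1514 FPKM in control libraries, with mixed signs among them. *Ctla4*, which the paper lists among the genes lower without JunB, fell (log2 difference -0.70). *Tnfrsf18*, *Cd3e* and *Ikzf2* had log2 differences of -0.30, -0.24 and -0.23. *Foxp3*, *Il2ra* and *Cd4* had values above 0 (0.08, 0.19 and 0.34). Activation markers moved with number 1 only in part. The 8 of them summed to 1684, 566 and 419 FPKM in *Junb*-deficient 1, 2 and 3, against 1066, 626 and 452 FPKM in control 1, 2 and 3, and 6 of 8 were highest in *Junb*-deficient 1. Their median level, as log2 minus the mean of the 6 libraries, was 0.12 in control 1 and 0.07 in control 2. *Myc* was lowest in control 1 (39.7 FPKM, against 75.2 and 59.5 FPKM in control 2 and 3). *Il2* was lowest in *Junb*-deficient 1 (0.974 FPKM), and *Nr4a3* and *Nr4a1* stood out in number 1. *Nr4a3*, an early gene of T cell receptor signalling, was at 253, 7.51 and 10.2 FPKM in *Junb*-deficient libraries, and at 126, 6.71 and 5.77 FPKM in controls. *Nr4a1*, of the same family, was at 837, 80.5 and 82.6 FPKM in *Junb*-deficient libraries, and at 491, 71.1 and 70.0 FPKM in controls. Among genes of quiescence and p53, *Gadd45b*, picked after its values were seen, was at 303, 34.9 and 39.7 FPKM in *Junb*-deficient libraries, against 209, 39.7 and 44.9 FPKM in controls, and *Tob2* and *Pmaip1* were likewise highest in the libraries numbered 1. The labels of the libraries numbered 1 also lack the lane suffix of the others. The part of these cells, of activation or of a run in the levels of the members was not tested.

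Leaving out libraries changed which members were called. Of the 3 that fell, *Stmn1* and *Gmnn* did so under all 17 alternatives and *Cenpa* under 11. Without *Junb*-deficient 1 the count that fell was 5, without control 2 it was 7, and without control 1 *Ccnd2* and *Cdk6* rose. Counts over all genes also varied widely between these fits (ranges are in the closing section). The member counts are therefore not read as a result about the members. Without both libraries numbered 1, *Gmnn*, *Stmn1*, *Cenpa*, *Pcna* and *Birc5* fell and *Ccnd2*, *Cdk6* and *Cdkn1a* rose, where 13.2% of all genes fell and 6.74% rose. *Gmnn* then passed the adjusted test (limma adjusted p = 0.0390), as did 2.26% of all genes, and over its 17 alternatives its adjusted p ran from 0.0390 to 0.9998. Comparing genotypes within numbers (limma with the number as a replicate block) gave 8 members that fell and 0 that rose, where 7.2% of all genes fell and 3.58% rose. These 8 were *Stmn1*, *Gmnn*, *Cenpa*, *Birc5*, *Ube2c*, *Ccna2*, *Aurka* and *Rrm2*, of which 6 are mitotic. The smallest adjusted p among members in that fit was 0.0778, for *Birc5*, and 0 members passed. In 15 of 45 members the *Junb*-deficient library was lower within every number, against 22.3% of all genes, and in 0 was it higher within every number, against 15.7%.

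The differences varied with exon length. Over all genes the median log2 difference was -0.29 in genes under 1000 bases, -0.21 in those of 1000 to 2000 bases and 0.15 in those over 6000. The members in the class of 1000 to 2000 bases were *Stmn1*, *Gmnn*, *Ccnb2* and *Cdc20*, and the longest were *Mki67* and *Top2a*. After each library was corrected for its trend on length, *Stmn1* and *Gmnn* still fell (log2 differences -1.06 and -0.60, limma unadjusted p = 0.00505 and 0.00974), and *Mki67* and *Top2a* stood at -0.56 and -0.45.

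**Figure D4:**
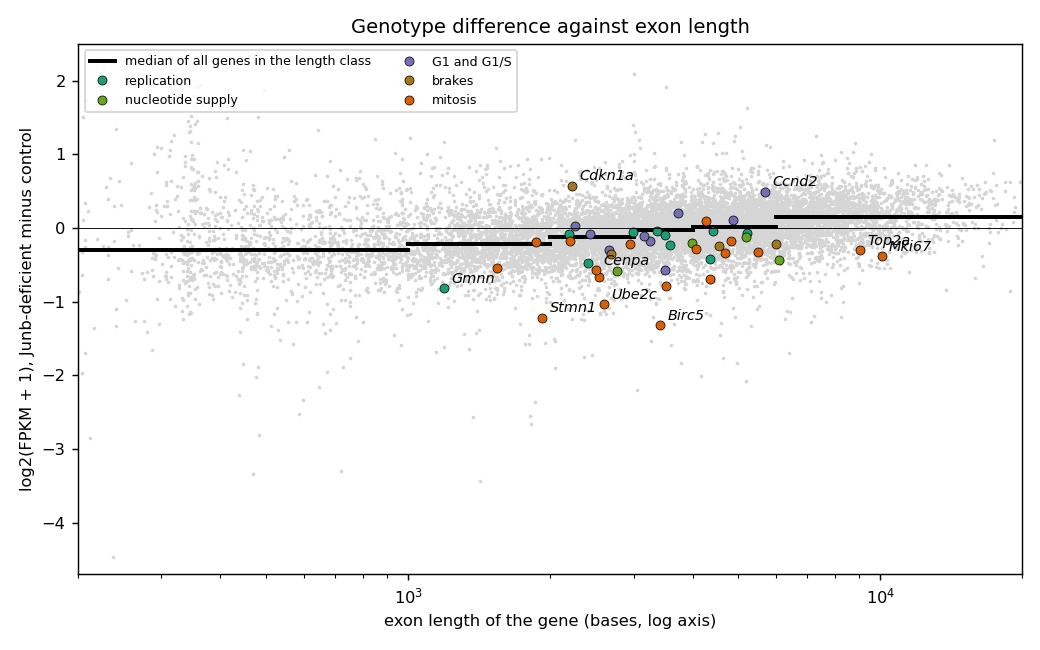
Log2(FPKM + 1), *Junb*-deficient minus control, against the exon length of each gene on a log axis, for all genes tested (grey) and the members (coloured by role), with the median of all genes in each length class as a black line. The line climbs from -0.29 to 0.15, and *Stmn1*, *Gmnn*, *Birc5* and *Ube2c* lie well below it.

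Some other members share sequence with other loci. Stretches of at least 30% of the transcript at 90% identity or more were found elsewhere for 13 of 46 members, among them *Mcm7*, *Tk1*, *Rrm2*, *Tyms*, *Ccnd3*, *Cdc20* and *Plk1*, and values of these genes are uncertain where reads could be split. The exons of *Ube2c* overlap those of *Tnnc2* on the opposite strand over 22.8% of their length, those of *Cdk4* overlap *Tspan31* (18.6%) and those of *Ccna2* overlap *Exosc9* (14.6%). The library kit marks strand, but the sources used here do not say whether the counting used it.

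Wider lists of the same pathways were read beside the members. Over all genes tested, 2.89% fell, 1.67% rose and 56.0% were below 0, with a median of -0.05. Of 55 other replication genes, all tested, 5 fell (9.09%) and 1 rose (1.82%), with a median of -0.22 and 49 below 0 (89.1%). Under the replicate block 8 of them fell (14.5%), where 7.2% of all genes did. Those of lowest p among the genes that fell were *Dut*, which clears dUTP, *Chek1*, the checkpoint kinase, *Cdc45* of the active helicase and *Tipin*, which protects stalled forks. *Dut* was at 33.4, 39.9 and 33.2 FPKM in *Junb*-deficient 1, 2 and 3, against 48.9, 54.8 and 60.4 FPKM in control 1, 2 and 3, with no overlap (log2 difference -0.61, SE 0.17). *Chek1* was at 2.63, 1.75 and 3.49 FPKM in *Junb*-deficient libraries, and at 3.93, 6.61 and 5.98 FPKM in controls, also without overlap (-0.85, SE 0.28). The gene that rose, *Rnaseh2a* (log2 difference 1.91, SE 0.36), lies on the same strand of chromosome 8 as the deleted *Junb* (chr8:87480509-87493666 of mm9).

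Of 70 other mitosis genes, 51 were tested and 3 fell (5.88%, against 2.89% of all genes), with a median of -0.37 and 48 below 0 (94.1%). Under the replicate block 6 fell (11.8%, against 7.2% of all genes). The 3 were *Hmgb2*, a chromatin protein, *Ndc80* of the kinetochore and *Cks1b*, a subunit of cyclin-dependent kinases. *Hmgb2* was at 10.2, 7.79 and 7.01 FPKM in *Junb*-deficient libraries, and at 16.3, 14.5 and 20.4 FPKM in controls, with no overlap (log2 difference -0.95, SE 0.21, limma adjusted p = 0.631). Control 1 was the highest library in 70.6% of these mitosis genes and in 30.9% of the other replication genes. Of 22 subunits and regulators of the APC/C and SCF ubiquitin ligases, 1 fell (4.55%), *Fbxo5* (EMI1, an inhibitor of the APC/C and not a subunit), which was at 4.57, 4.82 and 5.72 FPKM in *Junb*-deficient and 6.32, 9.16 and 10.6 FPKM in control libraries. Of 31 other genes of G1, E2F and DREAM, 28 were tested and 1 fell (3.57%), the repressor *E2f6*, whose controls spread from 9.77 to 88.8 FPKM. Of 18 genes of quiescence and p53, 0 rose and 0 fell, and 0 had an unadjusted p under 0.05 in limma. Their median was -0.03 and that of the G1, E2F and DREAM genes -0.06, close to that of all genes.

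**Figure D5:**
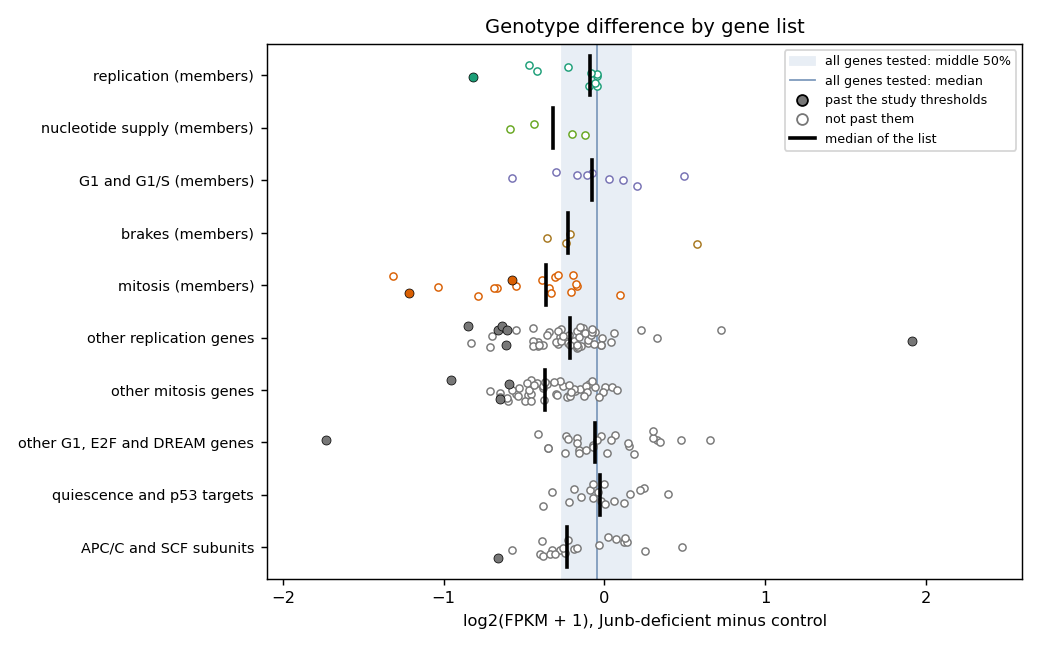
Log2(FPKM + 1), *Junb*-deficient minus control, of each tested gene by list, members above and wider lists below (filled points passed the study's thresholds, black bars are list medians, the blue band is the middle 50% of all genes). The mitosis lists centre at -0.36 and -0.37, the other replication genes at -0.22, the G1 members at -0.08 and the quiescence list at -0.03.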

How the data were processed

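Per the submitters' processing notes, the authors made the deposited FPKM values with TopHat2 2.2.1 and Cufflinks on mm9, from libraries of a strand-specific mRNA kit. The sources used here do not say whether the libraries were scaled further, or how strand and reads with several matches were counted. For the libraries numbered 1, whose sample names have no number, columns were matched by elimination. All 37305 gene identifiers were found in GENCODE for this build, which gave positions and exon lengths. Depth is known only relative to control 1, so no counting intervals are given.

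The 11781 genes whose mean over the 6 libraries reached 1 FPKM were tested (limma 3.58.1, R 4.3.3) on log2(FPKM + 1), 2-sided, using a mean-variance trend and Benjamini-Hochberg adjustment over all of them, and the script was tested on simulated data. With no proof of separate mice, the p values measure the spread between libraries, and an exact test of 3 against 3 cannot go below 0.1. The members and gene lists were chosen with earlier results of these data known, so lists are described by counts and medians without a test. The rule for named genes took all 46 members, *Junb*, of each wider list the genes past the study's thresholds (at most 5, in order of p), and markers a result turns on. Some marker genes are not reported here. Near-identical copies were searched with BLAST+ 2.17.0. Tables and figures used Python 3.11.15, pandas 2.3.3, numpy 2.4.6 and matplotlib 3.10.9.

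The replicate numbers were taken to pair the samples because, across the 11781 genes, the deviations of same-numbered libraries from their genotype's mean had correlations of 0.57, 0.42 and 0.24 for numbers 1, 2 and 3. Between different numbers the values ran from -0.53 to 0.41. The 0.41 was between *Junb*-deficient 2 and control 3, above the 0.24 of pair 3 and close to the 0.42 of pair 2. These values set number 1 apart, but the pairing within numbers 2 and 3 rests on the labels. Differences within numbers and p values with the block depend on that pairing. The alternatives were the replicate block, a correction for exon length (loess, span 0.5) with and without it, a term for the lane suffix of the label (number 1 against the others, no run being stated), scaling by median ratios or quantiles, a pseudocount of 0.1, no filter or a minimum mean of 5 FPKM, no trend in limma, and leaving out libraries.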

Additional observations from a re-analysis of the deposited data

How the results depend on the processing

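Over 17 alternatives *Stmn1* and *Gmnn* fell in all 17 and *Cenpa* in 11. The members that fell were 3, against 8 under the replicate block, 6 with a term for the lane suffix, 7 with exon length correction and block, 5 without both libraries numbered 1, and 3 to 7 when 1 library was left out. The members that rose were 0, against 3 without both libraries numbered 1 and 0 to 2 when 1 library was left out. Over all genes 197 rose, against 131 at a mean FPKM of at least 5, 422 under the replicate block, 415 with a term for the lane suffix, 396 with length correction and block, 780 without both libraries numbered 1, and 95 to 788 with 1 library left out. All genes that fell were 340, against 848 under the block, 840 with the lane suffix term, 1528 without both libraries numbered 1, and 204 to 1532 with 1 library left out. The median log2 difference of the G1 and G1/S drivers was -0.08, against 0.073 at a mean FPKM of at least 5, 0.090 under quantile scaling, 0.045 with exon length correction with and without the replicate block, 0.033 without both libraries numbered 1, and -0.223 to 0.050 when 1 library was left out. When 1 library was left out, that of mitosis ran from -0.722 to -0.036 and that of nucleotide supply from -0.48 to -0.056. The replicate block added calls for *Birc5*, *Ube2c*, *Ccna2*, *Aurka* and *Rrm2* and changed no other call among members. The cause was not tested, except that fewer genes or libraries enter some fits by construction. Depth was lowest in control 3 (0.344 of that of control 1), which limits the precision of the low mitotic genes most.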
